A study of Mus musculus with 31 samples.

Results

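The 46 genes described here encode proteins of the nucleolus and of ribosome biogenesis, and they were taken by symbol from 3 count tables of mouse pancreatic cancer cells that together hold 60172 gene identifiers. Each symbol had a single entry in every table, and all 46 genes passed the filter on low counts in all 3 tables. By the role of their products they comprised 4 nucleolar proteins with several roles (*Ncl*, *Npm1*, *Mybbp1a* and *Ddx21*), 4 factors of RNA polymerase I transcription, 3 box C/D and 4 box H/ACA snoRNP genes, 15 genes of the small subunit processome and small subunit maturation, and 16 genes of large subunit assembly.

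Ribosomes are assembled mainly in the nucleolus, where RNA polymerase I transcribes the precursor of most ribosomal RNAs. Box C/D snoRNPs, small nucleolar RNAs with proteins such as fibrillarin (*Fbl*), guide ribose methylation of this precursor, and box H/ACA snoRNPs around dyskerin (*Dkc1*) guide its pseudouridylation. The processome cuts and folds the part that becomes the small subunit, while a separate set of helicases, methyltransferases and scaffold proteins builds the large subunit. Enlarged nucleoli are a long-known feature of tumour cells, and the transcription factor MYC is known to activate many genes of this pathway, often from promoters that carry its binding motif, the E-box.

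RNA of Panc02, a pancreatic adenocarcinoma line of the mouse, was sequenced in 31 samples of 11 groups to ask how macrophage medium, 3D growth, loss of the chemokine gene *Cxcl5* and a forced return of *Hif1a* or *Myc* change expression. In the first table, WT spheroids in Matrigel received control medium (Ctrl), M0-CM from unstimulated bone marrow-derived macrophages or M1-CM from macrophages stimulated with IFNγ and LPS, with 3 samples each. In the second, WT and *Cxcl5-/-* cells grew as 2D or 3D culture in culture medium, with 3 samples each. In the third, the rescue table, all cells grew in 3D culture: WT (2 samples), *Cxcl5-/-* (2 samples), *Cxcl5-/-* cells that overexpressed a stabilized mutant of *Hif1a* (*Hif1a*OE *Cxcl5-/-*, 3 samples) and *Cxcl5-/-* cells that overexpressed *Myc* (*Myc*OE *Cxcl5-/-*, 3 samples), so that both overexpressing groups also carried the knockout. The knockout was made with 1 guide RNA in a lentiviral CRISPR vector and the overexpression with retroviral vectors, each followed by puromycin, and neither the isolation of single clones nor an empty vector in WT cells is described for these groups. The labels of the rescue samples number the cell line upwards from sample to sample, whereas the study names Panc02 throughout, which was followed here. The methods speak of biological replicates for the experiments in general, but the labels tie no sequenced sample to a culture, so p-values measure the spread between these samples, part of which may be technical.

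The total count per library ranged from 41542533 to 78498230, and the lowest count of any member in any library was 80, for *Gar1* in Ctrl, so that for the lowest members counting error adds to the spread between samples. In the rescue table both WT libraries stood apart, with 43037 and 43048 genes detected against 26886 to 31338 in the other libraries. The targeted gene *Cxcl5* was at 24.5 to 28.5 CPM in 3D WT and at 40.9 to 65.5 CPM in the libraries labelled 3D *Cxcl5-/-*, higher by 0.91 on the log2 scale (adjusted p = 0.000173), while in the rescue table it was lower in *Cxcl5-/-* than in WT (log2 fold change, log2FC, -0.78, adjusted p = 0.00107). An edit of the coding sequence need not lower the transcript, so the transcript level does not settle the genotype, and the 3D group is called by its label. *Epcam* and *Cdh1*, which define epithelial cells, stayed under 1 CPM in every library, while the keratins *Krt8* and *Krt18* were expressed, and of the 6 macrophage markers *Adgre1* and *Csf1r* stayed under 1 CPM and *Ptprc* under 2 CPM, while *Cd14*, *Cd68* and *Lyz2* were detected in every library and the list summed to 28.0 to 76.7 CPM. The summed level of the 5 epithelial markers was 839 to 1083 CPM in 3D WT against 187 to 219 CPM in labelled 3D *Cxcl5-/-*, and that of the 5 fibroblast markers was 150.2 to 158 CPM against 392 to 449 CPM. A sum does not speak for each marker. Of the 4 fibroblast markers tested 2 were higher and 1 lower in labelled 3D *Cxcl5-/-* (log2FC -3.74 to 3.33), while all 3 epithelial markers tested were lower. Each library is bulk RNA from cultures of 1 cell line, and macrophages were used only as a source of medium. The marker sums thus describe expression within this line. Fewer cells that express a marker and less of its RNA per cell cannot be told apart.

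The members covered a wide range of levels. Per length of exonic sequence (GENCODE M21, GRCm38), *Npm1*, which encodes the abundant nucleolar chaperone nucleophosmin, was highest in 2D WT at 416.2 CPM per kb, followed by *Nop56* at 68.7, and *Gar1*, a small box H/ACA protein, was lowest at 3.59 CPM per kb. *Npm1* and *Gar1* also had the highest and the lowest mean CPM per gene of all members in each of the 11 groups. The genes lie on 18 chromosomes, with 8 on chromosome 11. A feature that the choice of genes did not use is that 8 of the 46 (17.4%) hold snoRNA genes within their span, 23 in all, against 1.18% of 21951 annotated protein-coding genes. *Nop56* (chromosome 2, 130274430 to 130279313, plus strand) holds 5 of them, *Nop58* holds 4, and *Ncl*, *Wdr43* and *Gnl3* hold 3 each. For 7 members a pseudogene with at least 90% identity over at least 50% of the transcript is annotated. Its counts came to 8.995% of those of *Ddx18* and 7.87% of those of *Mrto4* and stayed under 1% of those of the other 5, so the levels of *Ddx18* and *Mrto4* are the least certain. For 19 members a gene on the opposite strand overlaps the member. The library kit keeps strand, but whether the counting used it is not given in the sources used here.

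The E-box CACGTG, which is its own reverse complement, was searched in promoters from RefSeq (GRCm38.p6, 250 bases before to 50 after the start). Of the 46 members 41 had a promoter in the table, with 50 promoters in all, of which 10 (20%) held the motif against 7.15% of all 32851 promoters and 8.03% of those of protein-coding genes. The sites that lie before the start are given because *Myc* was 1 of the genes put back into the *Cxcl5-/-* cells, with the motif in capitals and the gene's own strand 5' to 3'. A match is a description of the sequence, and binding was not measured.
*Nop2*, GRCm38.p6 chr6:125131811-125131840, plus strand, first motif base at -60: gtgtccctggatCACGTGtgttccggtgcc
*Imp4*, GRCm38.p6 chr1:34439696-34439725, plus strand, first motif base at -121: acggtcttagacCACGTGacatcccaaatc
*Rrn3*, GRCm38.p6 chr16:13780639-13780668, plus strand, first motif base at -48: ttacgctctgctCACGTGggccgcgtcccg
*Rrn3*, GRCm38.p6 chr16:13780472-13780501, plus strand, first motif base at -215: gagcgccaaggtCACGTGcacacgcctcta
The other 7 members with the motif (*Mybbp1a*, *Pes1*, *Pno1*, *Tsr1*, *Utp4*, *Utp20* and *Wdr43*) carry it downstream of the start. *Nop2* encodes a methyltransferase of large subunit RNA, *Imp4* a processome protein, and *Rrn3* the factor that brings RNA polymerase I to its promoter.

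**Figure D1:**
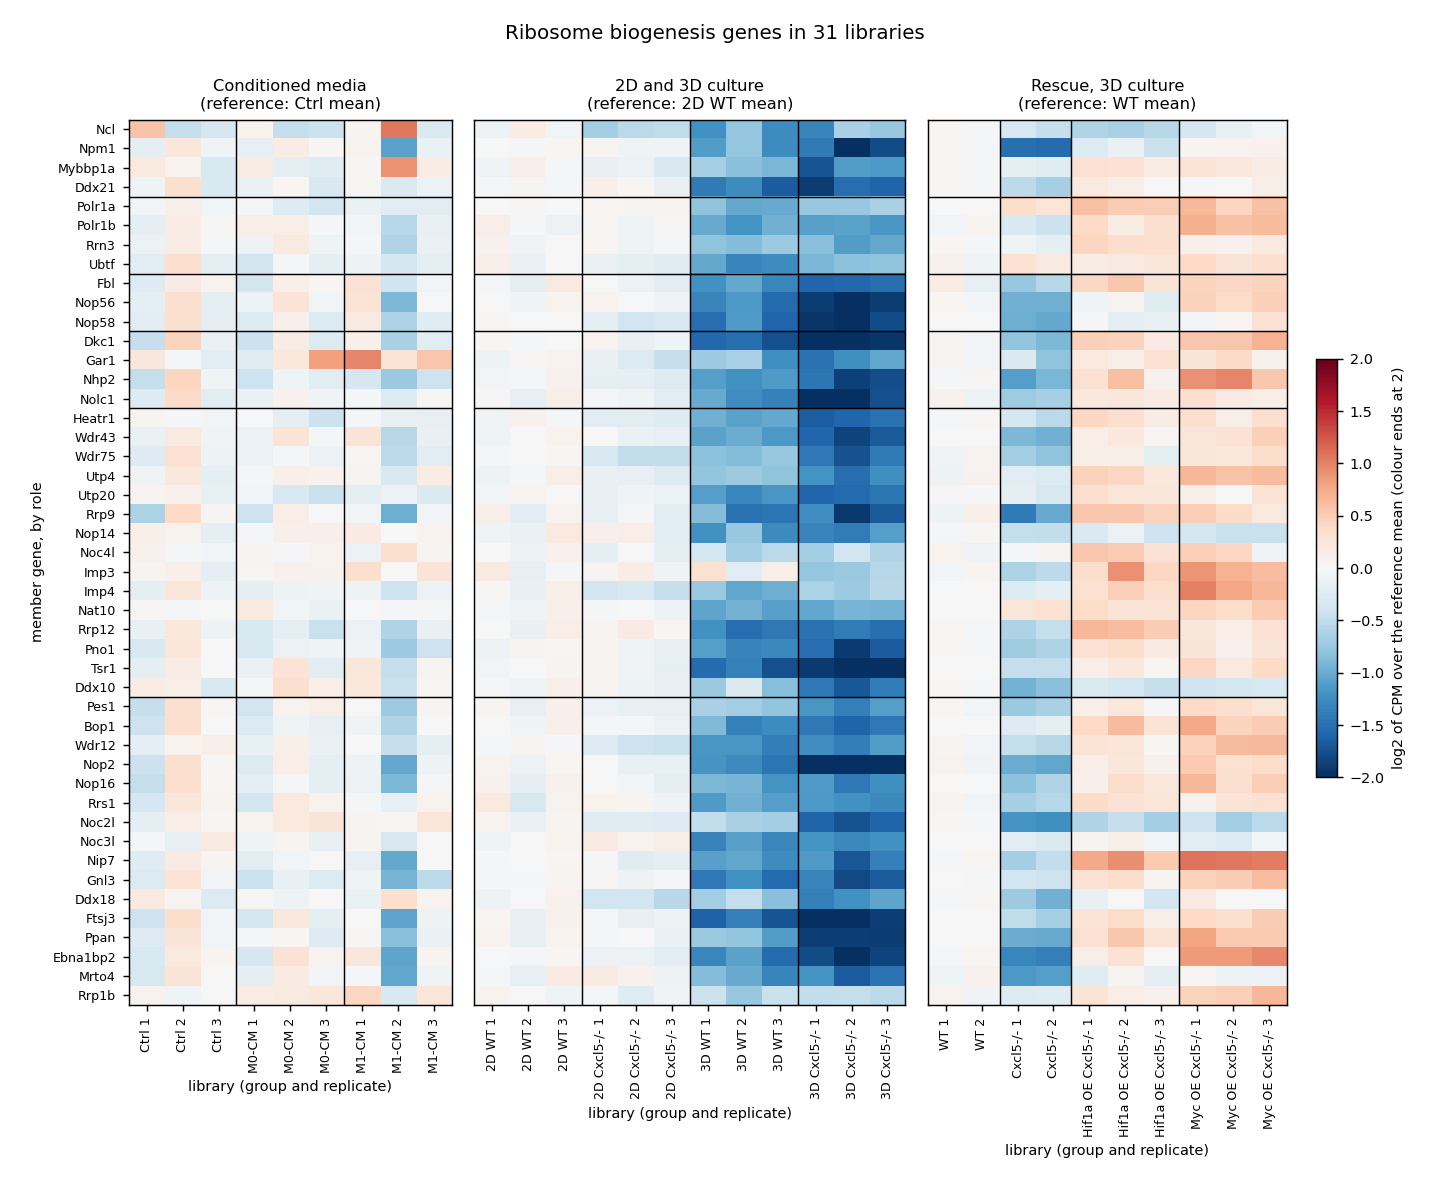
Levels of the 46 members (y axis, ordered by role) in each of the 31 libraries (x axis, group and replicate), coloured by log2 of the CPM over the mean of the reference group of each table. In the middle panel nearly all members are blue in the 6 libraries from 3D culture, and in the right panel the *Cxcl5-/-* libraries are blue while those with *Hif1a*OE or *Myc*OE are mostly red.

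With 3D culture nearly all members fell. In WT cells 45 of the 46 members were lower in 3D than in 2D (adjusted p under 0.05), where 22% of all 21367 genes tested were lower, and 0 were higher, where 22.2% of all genes were. No member was higher at an unadjusted p under 0.05 or by DESeq2 either. The median log2FC of the members was -1.07 against 0.00 for all genes tested, and their range was -1.61 to 0.09. The 46 genes took 0.564% to 0.579% of all counts in 2D WT and 0.2005% to 0.26% in 3D WT, which does not depend on the scaling between libraries. The 10 most abundant genes took 14.9% to 15.6% of the counts in 2D WT and 26.1% to 31.4% in 3D WT, and 23370 to 24575 genes were detected in 2D WT against 29547 to 31449 in 3D WT. The epithelial markers summed to 536 to 586 CPM in 2D WT and 839 to 1083 CPM in 3D WT, the fibroblast markers to 169.7 to 184 CPM and 150.2 to 158 CPM, and the macrophage markers to 28.0 to 32.4 CPM and 42.2 to 46.5 CPM. The part of these differences in the members' fall was not tested.

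*Npm1* was at 1101, 1085 and 1142 CPM in the 2D WT libraries and at 513, 646 and 462 CPM in 3D WT. The groups did not overlap, and the log2FC was -1.04 (SE 0.14, adjusted p = 4.24e-05). *Ncl*, which encodes nucleolin, a major RNA-binding protein of the nucleolus, was at 210.1, 254 and 220.2 CPM in 2D WT and at 98.6, 134 and 94.9 CPM in 3D WT. Every 3D library lay below every 2D library, with a log2FC of -1.06 (SE 0.17, adjusted p = 0.000136). *Fbl*, the methyltransferase of box C/D snoRNPs, went from 50.6, 45.4 and 58.8 CPM to 22.4, 25.4 and 20.8 CPM (log2FC -1.18, SE 0.11, adjusted p = 1.13e-06). The RNA polymerase I core was lower as well, and its libraries were close together in each group. *Polr1a* was at 126, 129 and 126 CPM in 2D WT and at 72.6, 62.3 and 62.9 CPM in 3D WT (log2FC -0.94, SE 0.08, adjusted p = 3.64e-07). *Polr1b* was at 60.8, 53.9 and 51.0 CPM in 2D WT and 27.5, 24.1 and 28.4 CPM in 3D WT (log2FC -1.05, SE 0.09, adjusted p = 4.89e-07).

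Each role class took part. All 4 nucleolar proteins with several roles, all 4 RNA polymerase I genes, all 3 box C/D and all 4 box H/ACA genes, 14 of the 15 small subunit genes and all 16 large subunit genes were lower, with class medians between -0.996 and -1.32. The member with the largest difference was *Dkc1*, the pseudouridine synthase of box H/ACA snoRNPs, at 142, 136 and 138 CPM in 2D WT and 46.7, 48.7 and 40.8 CPM in 3D WT. No library of either group came near the other group (log2FC -1.61, SE 0.09, adjusted p = 9.23e-09). *Ftsj3*, a methyltransferase of large subunit precursors (-1.56, SE 0.11), *Tsr1*, a small subunit maturation factor (-1.54, SE 0.10), and the RNA helicase gene *Ddx21* (-1.44, SE 0.12) followed. *Imp3*, a processome protein, was the exception, at 29.4, 23.3 and 25.4 CPM in 2D WT and 32.1, 22.6 and 28.4 CPM in 3D WT, and these groups overlapped (log2FC 0.09).

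Genes of the same pathway outside the set were counted from a list of 96. In 3D WT 90 of them were lower (median -0.73), led by *Aatf* (-1.70), *Exosc2* (-1.51) and *Rrp15* (-1.43). Of 13 long noncoding RNAs that host snoRNAs in their introns 10 were lower (median -0.67), led by *Snhg5* (-1.04), *Snhg1* (-0.97) and *Snhg12* (-0.81). By contrast *Myc* itself was higher in 3D than in 2D WT cells (log2FC 0.93, adjusted p = 1.76e-05), at a mean of 34.98 CPM against 18.3 CPM.

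**Figure D2:**
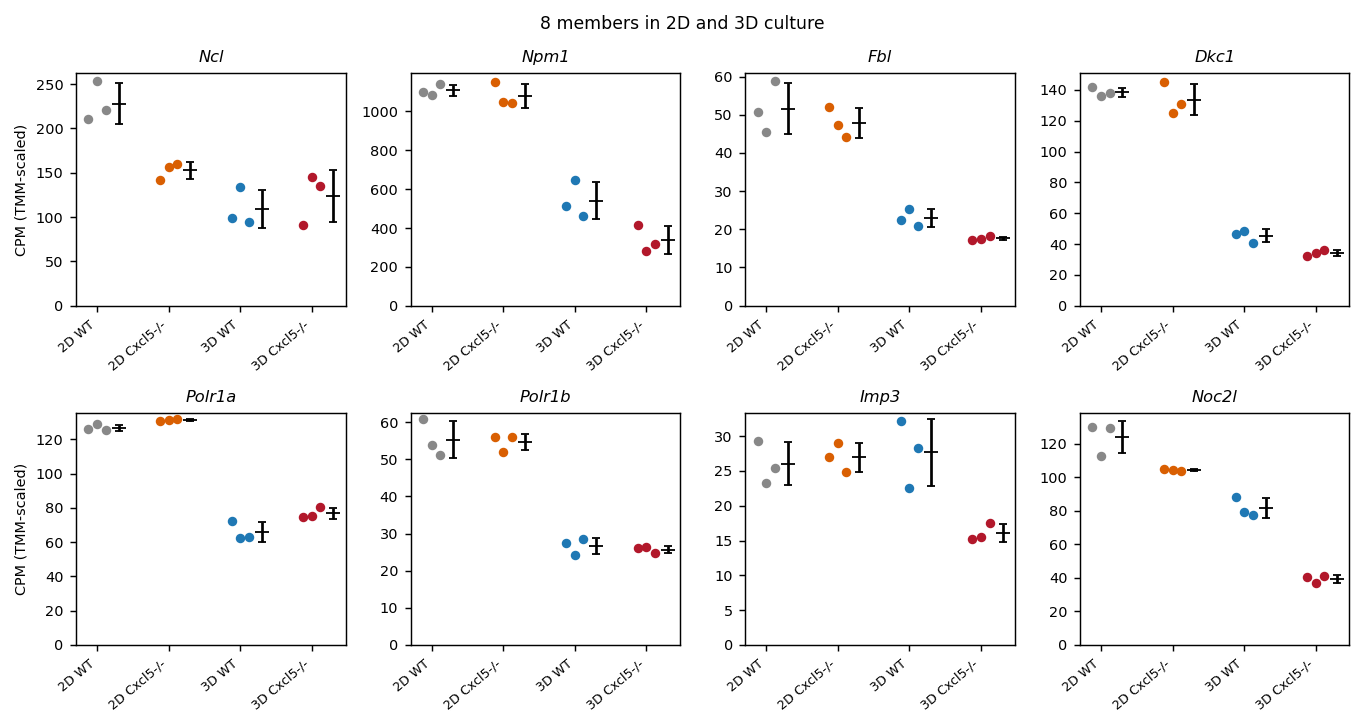
CPM after TMM scaling (y axis, from 0) of 8 members in the 2D and 3D table, with 1 point per library and the mean with SD beside each group of 3. The points of both 3D groups lie below those of both 2D groups for *Npm1*, *Fbl*, *Dkc1*, *Polr1a*, *Polr1b* and *Noc2l*, while for *Imp3* only the libraries labelled 3D *Cxcl5-/-* are lower than the rest.

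The fall with 3D culture was also seen between the *Cxcl5-/-* groups, which share no library with the WT comparison. In labelled 3D *Cxcl5-/-* 45 members were lower than in 2D *Cxcl5-/-* and 0 higher, where 28.2% of all genes were lower and 28.7% higher. No member was higher at an unadjusted p under 0.05 or by DESeq2. The median of the members was -1.37 against 0.11 for all genes, and the range was -1.99 to -0.26. From 2D to labelled 3D *Cxcl5-/-* the epithelial marker sum went from 438 to 476 CPM to 187 to 219 CPM and the fibroblast marker sum from 171 to 184 CPM to 392 to 449 CPM, and their part in the members' fall was not tested. Of the 3 epithelial markers tested here 2 were lower and 1 higher (log2FC -1.35 to 6.08). *Nop2*, which carries an E-box in the promoter shown above, was at 112, 100.02 and 100.1 CPM in 2D *Cxcl5-/-* and 25.6, 26.4 and 26.7 CPM in labelled 3D *Cxcl5-/-*. The 3D libraries lay close together and far below those from 2D culture, and the log2FC was -1.99 (SE 0.09, adjusted p = 1.27e-09). *Dkc1* (-1.97, SE 0.09), *Tsr1* (-1.95, SE 0.10) and *Nop56*, a core protein of box C/D snoRNPs (-1.94, SE 0.10), were next. Among the reference members *Npm1* (-1.67, SE 0.14), *Fbl* (-1.44, SE 0.11), *Polr1b* (-1.09, SE 0.09) and *Polr1a* (-0.77, SE 0.08) were lower.

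*Ncl* was the member that did not pass. It was at 142, 156 and 160.2 CPM in 2D *Cxcl5-/-* and 90.9, 145 and 135 CPM in labelled 3D *Cxcl5-/-*, and the groups overlapped (log2FC -0.30, SE 0.16, adjusted p = 0.129). Of the further 96 pathway genes 90 were lower and 1, *Ddx51*, was higher (0.60), and the lower ones were led by *Mphosph10* (-1.84), *Rrp15* (-1.67) and *Rsl1d1* (-1.64). Of the 13 snoRNA host RNAs 12 were lower (median -1.28), led by *Snhg5* (-1.92), *Snhg15* (-1.73) and *Snhg12* (-1.72).

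**Figure D3:**
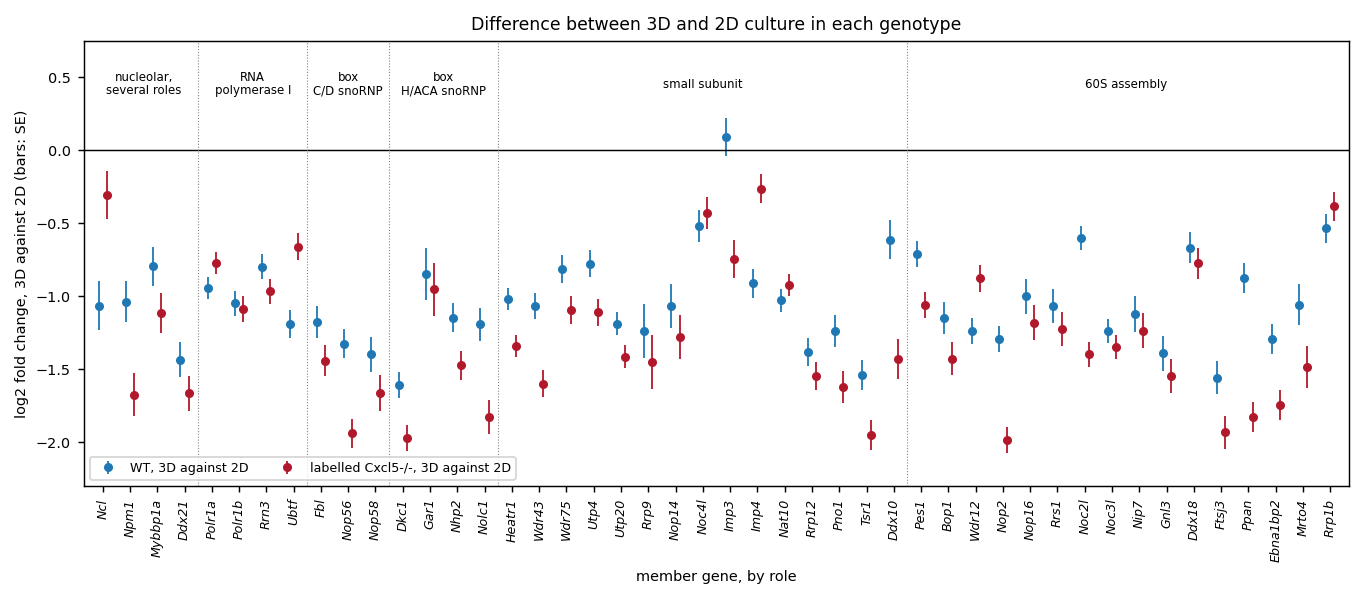
Log2 fold change of 3D against 2D culture (y axis, bars: SE) for each member (x axis, by role) in WT (blue) and in cells labelled *Cxcl5-/-* (red). All points but that of *Imp3* in WT lie below 0, *Imp4*, *Ncl* and *Ubtf* sit higher in the *Cxcl5-/-* comparison, and *Noc2l*, *Ppan*, *Imp3* and *Ddx10* sit lower there.

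Within 3D culture the genotypes also differed, by less than the culture conditions did. In labelled 3D *Cxcl5-/-* 26 of the 46 members were lower than in 3D WT, where 25.3% of all genes were lower, and 3 were higher, where 19.7% of all genes were. The median of the members was -0.38 against -0.04 for all genes, with a range of -1.05 to 0.35. This split rests on the scaling between libraries. With library totals in place of TMM 12 members were higher and 8 lower, the median of the members was -0.0047 and that of all genes moved to 0.35. A change of scaling moves all genes by nearly the same amount. The gap of -0.35 between the members and all genes was therefore bound to stay and is no check of the result. This gap depended on the filter. Without a filter the median was -0.30 for the members and -0.18 for all genes. TMM factors were 0.82 to 0.912 in 3D WT and 1.01 to 1.23 in labelled 3D *Cxcl5-/-*.

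The members with the largest differences belong to subunit assembly. *Noc2l*, a factor of large subunit maturation, was at 88.2, 79.2 and 77.4 CPM in 3D WT and 40.6, 36.9 and 41.1 CPM in labelled 3D *Cxcl5-/-*. The groups were far apart, with a log2FC of -1.05 (SE 0.08, adjusted p = 4.02e-07). *Ppan*, another large subunit factor, had a log2FC of -1.01 (SE 0.10, adjusted p = 3.46e-06), the helicase gene *Ddx10* one of -0.89 (SE 0.14, adjusted p = 0.000133) and *Imp3* one of -0.79 (SE 0.13, adjusted p = 0.000257). *Imp3*, which did not differ between 2D and 3D WT cells beyond its spread, was at 15.2, 15.5 and 17.5 CPM in labelled 3D *Cxcl5-/-*, below all 3D WT libraries.

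Among the reference members *Npm1* was at 418, 280 and 320.1 CPM in labelled 3D *Cxcl5-/-*, below the 462 to 646 CPM of 3D WT (log2FC -0.67, SE 0.14, adjusted p = 0.0016), though not called with library totals (-0.31). *Fbl*, at 17.3, 17.4 and 18.2 CPM, was lower too (log2FC -0.38, SE 0.11, adjusted p = 0.0118), but with library totals its log2FC was 0.01. *Ncl* overlapped between the groups (log2FC 0.18, SE 0.16, adjusted p = 0.393), and so did *Polr1b* (-0.05, SE 0.09, adjusted p = 0.644), and with library totals both were called higher (0.58 and 0.34). Of the 4 RNA polymerase I genes 2 were called and had positive values, and the other 2 were not called. The called genes were *Ubtf*, the architectural factor of ribosomal DNA, at 74.9, 79.6 and 80.9 CPM against 69.5, 56.5 and 58.8 CPM (log2FC 0.35, SE 0.09, adjusted p = 0.00788), and *Polr1a*, at 74.7, 75.2 and 80.5 CPM against 72.6, 62.3 and 62.9 CPM (0.22, SE 0.08, adjusted p = 0.0314). The other member called higher was *Imp4* (0.27, SE 0.10, adjusted p = 0.0374). Without 3D WT replicate 2, without 3D WT replicate 3 or without labelled 3D *Cxcl5-/-* replicate 3, 1 member was called higher. *Polr1a* lost its call in each of these fits (0.15, 0.16 and 0.17), as did *Imp4* (0.19, 0.21 and 0.21), which also lost it without labelled 3D *Cxcl5-/-* replicate 1 (0.24), and *Fbl* lost its call without labelled 3D *Cxcl5-/-* replicate 2 (-0.33). All 3 box C/D genes, 3 of 4 box H/ACA genes, 9 of 15 small subunit genes, 9 of 16 large subunit genes and 2 of the 4 proteins with several roles were lower.

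The further list of 96 held 49 genes lower and 10 higher in labelled 3D *Cxcl5-/-* (median -0.27). *Nob1* (-0.94), *Taf1b* (-0.90) and *Rrp7a* (-0.89) led the lower genes, and *Aatf* (1.11), *Nol6* (1.04) and *Ddx51* (0.94) the higher ones. All 13 snoRNA host RNAs were lower (median -0.80), led by *Snhg3* (-1.92), *Snhg8* (-1.39) and *Epb41l4aos* (-1.13). *Myc* was lower (log2FC -1.75, adjusted p = 8.94e-08) and so was *Hif1a* (-1.21, adjusted p = 4.13e-07). The summed epithelial and fibroblast markers moved with the same groups, as given above, and their part in the members' differences was not tested.

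In 2D culture the genotype differences of these genes were small and mostly negative. Between 2D *Cxcl5-/-* and 2D WT 4 members were lower, where 3.17% of all genes were, and 0 were higher, where 3.86% were, with 0 higher at an unadjusted p under 0.05 and by DESeq2. At an unadjusted p under 0.05, 9 members were lower, where 1892 of all 21367 genes were. DESeq2 called 6 lower, and 39 members had a negative log2FC. The median was -0.10 against -0.02 for all genes. The 4 were *Ddx18*, a large subunit helicase (-0.43, SE 0.11, adjusted p = 0.0259), *Wdr75* of the processome (-0.43, SE 0.09, adjusted p = 0.0122), *Imp4* (-0.37, SE 0.10, adjusted p = 0.0346) and *Wdr12*, which acts in large subunit assembly with *Pes1* and *Bop1* (-0.37, SE 0.09, adjusted p = 0.0216). Leaving out any 1 of the 6 libraries left 0 to 2 of these calls, with 0 left without 2D WT replicate 3, without 2D *Cxcl5-/-* replicate 2 or without 2D *Cxcl5-/-* replicate 3, and 2 left without any of the other 3 libraries. *Ddx18* was at 60.2, 65.3 and 69.1 CPM in 2D WT and 49.7, 50.4 and 44.3 CPM in 2D *Cxcl5-/-*, and these groups did not overlap. *Ncl* had the largest difference of all members at -0.58 (SE 0.16), with 3 libraries at 142 to 160.2 CPM below the 210.1 to 254 CPM of WT, but its adjusted p of 0.052 missed the threshold in edgeR, while it passed by DESeq2 (-0.56). *Npm1* (-0.04), *Fbl* (-0.11), *Polr1a* (0.05) and *Polr1b* (-0.01) were also not called.

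Of the further 96 genes 3 were lower in 2D *Cxcl5-/-*, namely *Taf1b* (-0.59), *Taf1a* (-0.51), both subunits of the selectivity factor of RNA polymerase I, and *Nvl* (-0.35). Of the 13 snoRNA host RNAs edgeR called 0, with 0 at an unadjusted p under 0.05.

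An interaction term compared the genotype effect between the culture conditions. It called 13 members with a more negative effect in 3D, where 16.1% of all genes had one, and 3 with a more positive effect, where 11.1% of all genes had one. The median difference was -0.26 against -0.05 for all genes, and 0.10 against 0.32 with library totals, where the split was 7 more positive, *Polr1a* among them (0.54), and 2 more negative, with *Npm1* (-0.29), *Imp3* (-0.46) and *Ddx10* (-0.47) no longer called. Without a filter the median difference was -0.18 against -0.20 for all genes, so the members did not stand below all genes there. *Ppan* (-0.95, SE 0.14, adjusted p = 0.000311), *Imp3* (-0.84, SE 0.18, adjusted p = 0.00431), *Ddx10* (-0.82, SE 0.19, adjusted p = 0.00626) and *Noc2l* (-0.80, SE 0.12, adjusted p = 0.000276) had the most negative terms. *Npm1* was among them at -0.64 (SE 0.20, adjusted p = 0.03). The 3 positive terms were those of *Ncl* (0.76, SE 0.23, adjusted p = 0.0271), *Imp4* (0.65, SE 0.14, adjusted p = 0.00401) and *Ubtf* (0.53, SE 0.13, adjusted p = 0.00922). For *Fbl* (-0.26, adjusted p = 0.219), *Polr1a* (0.17, adjusted p = 0.275) and *Polr1b* (-0.04, adjusted p = 0.863) no difference was detected. Without 2D *Cxcl5-/-* replicate 1 or without labelled 3D *Cxcl5-/-* replicate 2 the count of more negative effects was 8. *Npm1* was then at -0.54 and -0.49 without a call, and it also lost its call without 3D WT replicate 2 (-0.53) or labelled 3D *Cxcl5-/-* replicate 3 (-0.63). The call of *Ncl* was lost in 7 of the 12 fits that left out 1 library (0.62 to 0.76), namely without 2D WT replicate 2, 2D *Cxcl5-/-* replicates 1 and 2, 3D WT replicates 1 and 3 and labelled 3D *Cxcl5-/-* replicates 2 and 3. Of the further list 25 genes had a more negative effect in 3D, led by *Nob1* (-0.96), *Rrp7a* (-0.83) and *Rsl1d1* (-0.74), and 7 a more positive one, led by *Nol6* (1.16), *Ddx51* (1.11) and *Aatf* (0.90), and of the 13 snoRNA host RNAs 11 had a more negative one (median -0.69), led by *Snhg8* (-1.38), *Snhg15* (-1.05) and *Snhg12* (-0.91).

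The rescue table holds a further pair of 3D groups, so the genotype difference could be measured again in other libraries. No separately made knockout is described for these libraries. In *Cxcl5-/-* 33 members were lower than in WT, where 24.3% of all 28730 genes tested were lower, and 2 were higher, where 17.6% of all genes were. The median of the members was -0.58 against -0.30 for all genes, and the range was -1.52 to 0.29. The median of all genes moved with the libraries and the filter, to -0.53 without *Cxcl5-/-* replicate 1, -0.52 without *Cxcl5-/-* replicate 2, -1.18 without a filter and -0.01 with at least 10 counts in every library, while that of the members stayed between -0.68 and -0.54 under the alternatives, so the gap between them is not a stable value. These values rest on the 2 WT libraries, which had many more genes detected than the others, as given above.

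*Npm1* had the largest difference, at 906 and 876 CPM in WT and 313 and 307 CPM in *Cxcl5-/-*. The knockout libraries nearly coincided, far below WT (log2FC -1.52, SE 0.11, adjusted p = 1.61e-06). *Ebna1bp2*, a large subunit assembly factor, was at 50.8 and 53.1 CPM in WT and 20.98 and 20.1 CPM in *Cxcl5-/-*, again far apart (log2FC -1.34, SE 0.10, adjusted p = 2.81e-06). *Noc2l* (-1.20, SE 0.11) and *Rrp9*, a processome protein (-1.20, SE 0.15), were next. *Fbl*, at 33.5 and 27.3 CPM in WT and 18.1 and 20.5 CPM in *Cxcl5-/-*, was lower (-0.65, SE 0.12, adjusted p = 0.00164), as were *Ncl*, at 222 and 209 CPM against 172 and 156 CPM (-0.40, SE 0.10, adjusted p = 0.0111), and *Polr1b*, at 24.5 and 26.3 CPM against 20.6 and 18.9 CPM (-0.36, SE 0.11, adjusted p = 0.0188). The higher members were *Polr1a*, at 55.8 and 55.3 CPM in WT and 70.7 and 65.4 CPM in *Cxcl5-/-* (0.29, SE 0.09, adjusted p = 0.0274), and *Nat10*, an acetyltransferase of ribosomal RNA (0.27, SE 0.09, adjusted p = 0.0338). Without any 1 of the 4 libraries 0 members were called higher, with *Polr1a* at 0.23 to 0.35 and *Nat10* at 0.25 to 0.30, and by DESeq2 0 were, while 3 were at an unadjusted p under 0.05. *Ncl* lost its call without WT replicate 1 (-0.36) or *Cxcl5-/-* replicate 2 (-0.32), and *Polr1b* lost it without WT replicate 1 (-0.42), WT replicate 2 (-0.30) or *Cxcl5-/-* replicate 2 (-0.29), and with library totals neither was called (-0.35 and -0.32). By role, 3 of 4 proteins with several roles, 1 of 4 RNA polymerase I genes, all 3 box C/D genes, 3 of 4 box H/ACA genes, 10 of 15 small subunit genes and 13 of 16 large subunit genes were lower.

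Set side by side, 22 members were lower in both 3D genotype comparisons, which is 84.6% of the 26 lower in the first and 66.7% of the 33 lower in the second. With so many of the 46 lower in each, many shared calls arise from these counts alone. The overlap was not counted over all genes, so it is given as a description. *Polr1a* was the 1 member higher in both, and 0 members were called in opposite directions. Across the 46 members the log2FCs of both comparisons had a Pearson r of 0.711 and a Spearman rho of 0.705, given as a description, since genes are not independent and the libraries of both comparisons share the cell line and the count processing. *Noc2l* (-1.05 and -1.20), *Ppan* (-1.01 and -0.995), *Ddx10* (-0.89 in both) and *Npm1* (-0.67 and -1.52) were far below 0 in both. *Ncl* had a log2FC of 0.18 in the first table and -0.40 in the second.

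**Figure D4:**
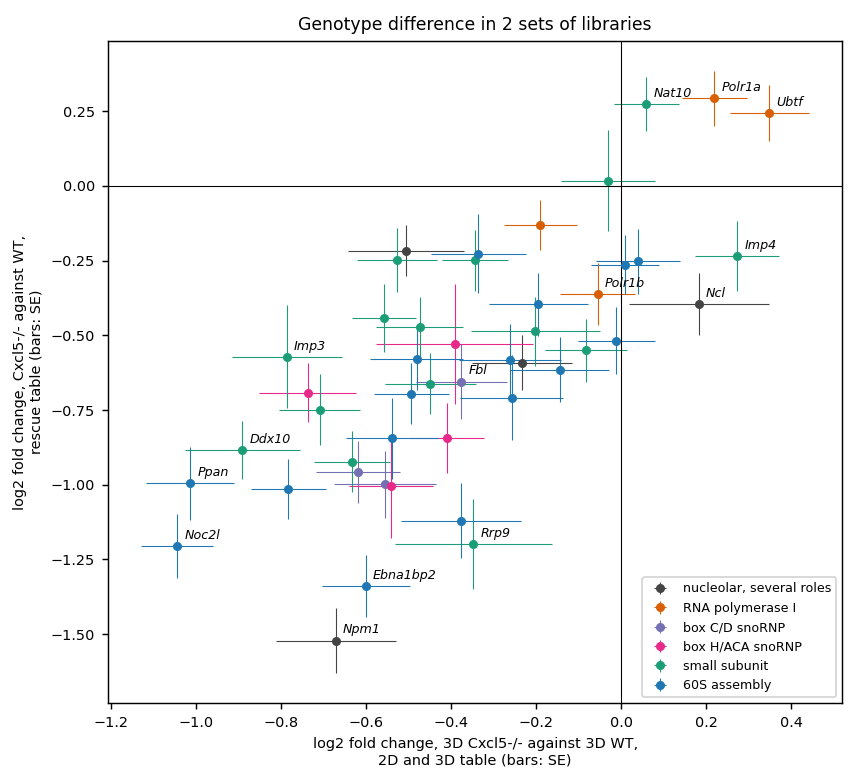
Log2 fold change of *Cxcl5-/-* against WT in 3D culture for each of the 46 members in the 2D and 3D table (x axis) and in the rescue table (y axis), with bars for the SE and colours for the role. Most members lie at the lower left, *Noc2l*, *Ppan*, *Npm1* and *Ebna1bp2* among the farthest, while *Polr1a* and *Ubtf* lie at the upper right.

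Of the further 96 genes 50 were lower and 6 higher in the *Cxcl5-/-* libraries of the rescue table (median -0.34). *Rrp15* (-1.41), *Rpf2* (-1.26) and *Taf1d* (-1.23) led the lower genes, and *Ddx51* (1.22), *Nol6* (1.04) and *Senp3* (0.77) the higher ones. Of the 13 snoRNA host RNAs 11 were lower (median -1.13), led by *Snhg15* (-1.53), *Snhg5* (-1.45) and *Gas5* (-1.38). *Myc* (-1.17, adjusted p = 9.04e-05) and *Hif1a* (-1.18, adjusted p = 1.04e-05) were lower. The 5 epithelial markers summed to 821 to 864 CPM in WT and 257 to 270.04 CPM in *Cxcl5-/-*, and the 5 fibroblast markers to 72.7 to 76.3 CPM and 372 to 377 CPM, and their part in the members' differences was not tested.

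Overexpression of the *Hif1a* mutant in *Cxcl5-/-* cells came with higher levels of nearly the whole set. In *Hif1a*OE *Cxcl5-/-* 42 members were higher than in *Cxcl5-/-*, where 20.5% of all genes were, and 0 were lower, where 15% of all genes were. No member was lower at an unadjusted p under 0.05, and DESeq2 called 1 lower. The median of the members was 0.74 against 0.16 for all genes, with a range of -0.20 to 1.71. *Rrp9* had the largest difference, at 6.95 and 9.14 CPM in *Cxcl5-/-* and 26.9, 26.8 and 25.03 CPM in *Hif1a*OE *Cxcl5-/-*. All 3 overexpressing libraries lay far above both knockout libraries (log2FC 1.71, SE 0.14, adjusted p = 4.93e-06). *Ebna1bp2* (1.48, SE 0.10), *Ppan* (1.38, SE 0.12) and *Nhp2*, a core box H/ACA protein (1.35, SE 0.16), followed.

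*Npm1* was at 734, 816 and 652 CPM in *Hif1a*OE *Cxcl5-/-*, above the knockout libraries at 313 and 307 CPM (log2FC 1.24, SE 0.10, adjusted p = 4.43e-06). *Fbl*, at 40.3, 44.1 and 36.4 CPM, was higher as well (1.06, SE 0.12, adjusted p = 3.21e-05), and so was *Polr1b* at 33.1, 28.2 and 31.8 CPM (0.65, SE 0.10, adjusted p = 0.000303). *Polr1a*, at 83.3, 79.1 and 77.9 CPM, stood at the threshold (0.24, SE 0.08, adjusted p = 0.0499) and lost its call when any 1 of the 5 libraries was left out (0.19 to 0.31) and by DESeq2 (0.19). *Ncl*, at 142, 137 and 147 CPM, lay below the knockout libraries at 172 and 156 CPM without passing the test (-0.20, SE 0.09, adjusted p = 0.118), and it was the member that DESeq2 called lower (-0.25). By role, 3 of 4 proteins with several roles, 3 of 4 RNA polymerase I genes, all 3 box C/D genes, all 4 box H/ACA genes, 13 of 15 small subunit genes and all 16 large subunit genes were higher.

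*Hif1a* itself was at 243 to 296 CPM in this group against 133 to 144 CPM in *Cxcl5-/-*, and *Myc* at 23.0 to 26.8 CPM against 20.02 to 22.3 CPM, where *Myc* was not called (log2FC 0.25). Of the further 96 genes 61 were higher and 3 lower (median 0.49). The higher ones were led by *Polr1d* (1.84), *Taf1d* (1.72) and *Rrp15* (1.55), and the lower ones were *Nol6* (-0.56), *Ddx51* (-0.51) and *Ttf1* (-0.37). Of the 13 snoRNA host RNAs 10 were higher, led by *Snhg15* (1.53), *Snhg8* (1.49) and *Snhg1* (1.33). The epithelial markers summed to 659 to 781 CPM and the fibroblast markers to 130 to 168 CPM in this group, and their part in the members' differences was not tested.

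*Myc* overexpression came with higher levels of the set too. In *Myc*OE *Cxcl5-/-* 40 members were higher than in *Cxcl5-/-*, where 21.6% of all genes were, and 0 were lower, where 18% of all genes were. No member was lower at an unadjusted p under 0.05 or by DESeq2, and with library totals 1 was. The median was 0.90 against 0.11 for all genes, and the range was 0.07 to 2.23. *Ebna1bp2* was at 93.9, 93.6 and 101.1 CPM in *Myc*OE *Cxcl5-/-* against 20.98 and 20.1 CPM in *Cxcl5-/-*. The 3 libraries were close together and far above the knockout libraries (log2FC 2.23, SE 0.10, adjusted p = 6.74e-08). *Nhp2* (1.82, SE 0.17), *Nip7*, a large subunit factor (1.64, SE 0.12), and *Ppan* (1.61, SE 0.12) followed.

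*Npm1*, at 925, 937 and 944 CPM, was higher than in both knockout libraries (1.59, SE 0.10, adjusted p = 6.91e-07), as was *Fbl* at 41.2, 40.4 and 41.2 CPM (1.08, SE 0.12, adjusted p = 2.07e-05). The RNA polymerase I core was split in size. *Polr1b*, at 41.7, 38.2 and 39.5 CPM against 20.6 and 18.9 CPM, had a log2FC of 1.01 (SE 0.10, adjusted p = 1.03e-05), and *Polr1a*, at 87.2, 74.9 and 83.4 CPM against 70.7 and 65.4 CPM, one of 0.27 (SE 0.08, adjusted p = 0.0271), which turned to -0.07 with library totals and lost its call without *Cxcl5-/-* replicate 1 or 2 or *Myc*OE *Cxcl5-/-* replicate 1 or 3 (0.22 to 0.34). *Ncl*, at 171, 195 and 207 CPM, was not called (0.22, SE 0.10, adjusted p = 0.0896), although it was without *Myc*OE *Cxcl5-/-* replicate 1 (0.30). By role, 3 of 4 proteins with several roles, 3 of 4 RNA polymerase I genes, all 3 box C/D genes, all 4 box H/ACA genes, 12 of 15 small subunit genes and 15 of 16 large subunit genes were higher. The members with an E-box in the promoter had a median of 0.87 (10 genes, all called higher) and those without one a median of 0.93 (31 genes, of which 25 were called). Of the genes whose sites are shown above, *Nop2* (1.42) and *Imp4* (1.06) lay above both medians and *Rrn3* (0.26) below them. The pattern was not particular to *Myc*OE. In *Hif1a*OE *Cxcl5-/-* against *Cxcl5-/-*, all 10 members with the motif and 27 of the 31 without it were higher (medians 0.61 and 0.74). In labelled 3D *Cxcl5-/-* against 3D WT, 8 of the 10 members with the motif and 15 of the 31 without it were lower, with medians of -0.48 and -0.38. Between *Cxcl5-/-* and WT of the rescue table the order was the other way. There 5 of the 10 with the motif and 24 of the 31 without it were lower (medians -0.36 and -0.58). None of these differences was tested.

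The *Myc* gene was at 397 to 548 CPM in *Myc*OE *Cxcl5-/-* against 20.02 to 22.3 CPM in *Cxcl5-/-* (log2FC 4.54), with reads from the vector and from the genome counted together, and *Hif1a* was at 241 to 271 CPM (log2FC 0.90). Of the further 96 genes 65 were higher and 2 lower (median 0.48). *Taf1d* (1.93), *Rrp15* (1.87) and *Gnl2* (1.79) led the higher ones, and the lower ones were *Ddx51* (-0.94) and *Nol6* (-0.46). All 13 snoRNA host RNAs were higher (median 1.67), led by *Snhg8* (2.12), *Epb41l4aos* (1.76) and *Zfas1* (1.73). The epithelial markers summed to 240 to 284 CPM here, a range that includes the 257 to 270.04 CPM of *Cxcl5-/-*. The fibroblast markers summed to 310 to 341 CPM, below the 372 to 377 CPM of *Cxcl5-/-*, and the 6 macrophage markers to 59.7 to 76.7 CPM, above its 34.5 to 34.7 CPM, and their part in the members' differences was not tested.

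**Figure D5:**
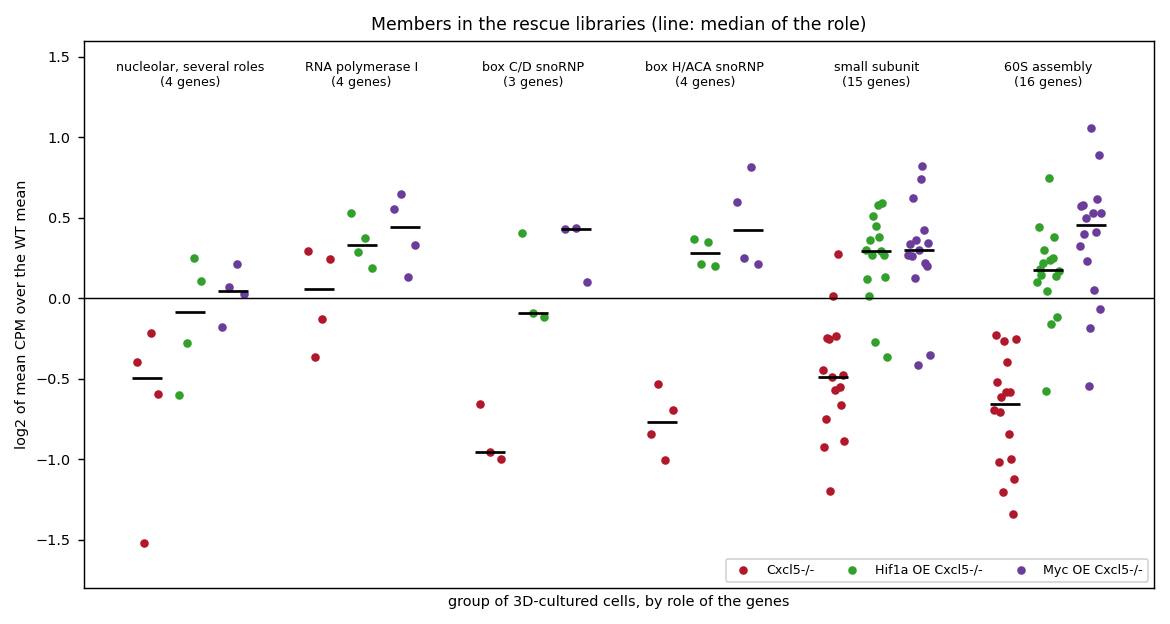
Log2 of the mean CPM over the WT mean (y axis) for each member in *Cxcl5-/-* (red), *Hif1a*OE *Cxcl5-/-* (green) and *Myc*OE *Cxcl5-/-* (purple), by role (x axis), with the role's median as a line. The red medians lie below 0 in all roles but RNA polymerase I, and the purple medians lie above 0 in all roles.

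The comparisons above share the *Cxcl5-/-* libraries, so the overexpressing groups were compared with each other directly. In *Myc*OE *Cxcl5-/-* 12 members were higher than in *Hif1a*OE *Cxcl5-/-*, where 9.54% of all genes were, and 2 were lower, where 9.73% of all genes were, with a median of 0.16 against -0.01 for all genes. With library totals the split was 5 higher and 3 lower. *Ebna1bp2* was at 93.9, 93.6 and 101.1 CPM with *Myc* and 56.6, 63.3 and 51.7 CPM with *Hif1a*, and the groups did not overlap (log2FC 0.75, SE 0.08, adjusted p = 7.81e-05). *Nop56*, at 167, 157 and 169 CPM against 114, 126 and 102 CPM (0.53, SE 0.08, adjusted p = 0.000963), *Nhp2* (0.47, SE 0.14, adjusted p = 0.0347) and *Imp4* (0.44, SE 0.10, adjusted p = 0.00705) were next.

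Of the reference members *Ncl* (0.42, SE 0.08, adjusted p = 0.00435), *Npm1* (0.35, SE 0.09, adjusted p = 0.0157) and *Polr1b* (0.36, SE 0.08, adjusted p = 0.0114) were higher with *Myc*, although *Ncl* (0.31) and *Polr1b* (0.24) were not called with library totals. *Fbl* (0.02, SE 0.10) and *Polr1a* (0.03, SE 0.08) were not called. The 2 lower members were *Rrp12*, which acts in small subunit export, at 25.6, 24.1 and 27.1 CPM against 34.6, 33.6 and 31.2 CPM (-0.37, SE 0.08, adjusted p = 0.00874), and *Rrn3* (-0.24, SE 0.07, adjusted p = 0.0277). Large subunit assembly held 6 of the 12 higher members. Without *Hif1a*OE *Cxcl5-/-* replicate 1 the count was 7 higher and 1 lower, and without *Myc*OE *Cxcl5-/-* replicate 1 or 2 there was 1 lower member, in each case with *Rrn3* uncalled (-0.23 to -0.21). *Npm1* lost its call without *Hif1a*OE *Cxcl5-/-* replicate 1 (0.35), and *Nhp2*, whose groups overlapped, lost it without *Hif1a*OE *Cxcl5-/-* replicate 1 or 3 or *Myc*OE *Cxcl5-/-* replicate 1 or 2 (0.36 to 0.44). Of the further list 16 genes were higher and 6 lower with *Myc*, among them *Gnl2* (1.26), *Nle1* (0.68) and *Exosc2* (0.63) and, lower, *Ddx54* (-0.55), *Aatf* (-0.50) and *Ddx55* (-0.49). Of the snoRNA host RNAs 8 were higher (median 0.48), led by *Epb41l4aos* (1.29), *Gas5* (0.75) and *Snhg8* (0.63). The *Hif1a* transcript was not called between these groups (-0.04, adjusted p = 0.826), while *Myc* was higher with *Myc*OE (4.28).

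Compared with WT, the overexpressing groups had several members above the WT level, although the counts of calls depended on the WT libraries and on the scaling. In *Hif1a*OE *Cxcl5-/-* 16 members were higher than in WT, where 13.9% of all genes were, and 3 were lower, where 10.3% of all genes were, with a median of 0.23 against -0.10 for all genes. By DESeq2 the split was 5 higher and 6 lower (median 0.09 against -0.24 for all genes). With library totals it was 4 and 8 (median 0.05 against -0.27 for all genes). With at least 10 counts in every library the median was 0.07 against 0.01 for all genes. Without WT replicate 1 or without WT replicate 2 there were 5 higher members, without *Hif1a*OE *Cxcl5-/-* replicate 1 there were 8, and without *Hif1a*OE *Cxcl5-/-* replicate 2 there were 9 higher and 5 lower. *Nip7* was at 44.2 and 46.6 CPM in WT and at 76.8, 86.4 and 65.4 CPM in *Hif1a*OE *Cxcl5-/-*, where all libraries were above WT (log2FC 0.75, SE 0.11, adjusted p = 0.000888). *Rrp12* (0.59, SE 0.10), *Imp3* (0.58, SE 0.16), *Polr1a* (0.53, SE 0.09), *Fbl* (0.41, SE 0.11) and *Polr1b* (0.29, SE 0.10) were higher as well. The 3 lower members were *Ncl*, at 142, 137 and 147 CPM against 222 and 209 CPM in WT (-0.60, SE 0.09, adjusted p = 0.00112), *Noc2l* (-0.58, SE 0.10, adjusted p = 0.00162) and *Ddx10* (-0.37, SE 0.09, adjusted p = 0.0116). *Npm1* was not called (-0.28, adjusted p = 0.0573) but was without *Hif1a*OE *Cxcl5-/-* replicate 2 (-0.37) and by DESeq2 (-0.42), which called neither *Fbl* (0.26) nor *Polr1b* (0.15). The calls of *Fbl* (0.28 without WT replicate 2, 0.41 and 0.33 without *Hif1a*OE *Cxcl5-/-* replicates 1 and 2), *Polr1b* (0.24 to 0.36 without either WT library or *Hif1a*OE *Cxcl5-/-* replicate 1 or 3), *Imp3* (0.53 and 0.66) and *Ddx10* (-0.32 and -0.39), the last pair without WT replicates 1 and 2, were lost in these fits. Of the further list 35 genes were higher, led by *Aatf* (0.99), *Taf1c* (0.85) and *Polr1d* (0.80), and 7 lower, led by *Surf6* (-0.58), *Utp3* (-0.51) and *Exosc10* (-0.47). *Snhg20* (0.79) and *Snhg17* (0.43) were higher, and *Snhg12* (-0.57) and *Gas5* (-0.43) were lower. Against WT the *Hif1a* transcript was not called (-0.24, adjusted p = 0.0999), and *Myc* was lower (-0.92, adjusted p = 0.000625).

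In *Myc*OE *Cxcl5-/-* 24 members were higher than in WT, where 17.1% of all genes were, and 3 were lower, where 14.7% of all genes were, with a median of 0.33 against -0.17 for all genes. By DESeq2 the split was 21 and 5 (median 0.21 against -0.30 for all genes). With library totals it was 8 and 6 (median 0.04 against -0.46 for all genes). With at least 10 counts in every library the median was 0.17 against 0.01 for all genes. Without WT replicate 2 there were 15 higher members, and without either WT library 1 was lower. *Nip7*, at 96.4, 94.3 and 92.7 CPM, was above both WT libraries (1.06, SE 0.11, adjusted p = 4.96e-05). *Ebna1bp2* (0.89, SE 0.09), *Imp4* (0.82, SE 0.11), *Nhp2* (0.82, SE 0.16), *Polr1b* (0.65, SE 0.10), *Polr1a* (0.56, SE 0.09) and *Fbl* (0.43, SE 0.11) were higher. *Noc2l*, at 62.0, 51.1 and 56.8 CPM against 84.1 and 81.4 CPM in WT, was lower (-0.55, SE 0.10, adjusted p = 0.00142), and so were *Nop14*, a processome protein (-0.41, SE 0.10, adjusted p = 0.0122), and *Ddx10* (-0.35, SE 0.09, adjusted p = 0.0112). Without WT replicate 1 or 2 *Nop14* (-0.43 and -0.38) and *Ddx10* (-0.31 and -0.37) were uncalled, and without WT replicate 2 so was *Fbl* (0.30). *Npm1* (0.07, adjusted p = 0.606) and *Ncl* (-0.18, adjusted p = 0.179) were not called, but DESeq2 called *Ncl* lower (-0.30), and with library totals *Fbl* (0.14), *Polr1a* (0.26) and *Polr1b* (0.35) were not called higher. *Noc2l* and *Ddx10* were thus below WT in both overexpressing groups, which share the WT libraries, although both were higher there than in *Cxcl5-/-* (*Noc2l* by 0.63 and 0.66, *Ddx10* by 0.52 and 0.54 on the log2 scale). Of the further list 45 genes were higher, led by *Exosc5* (1.24), *Gnl2* (1.23) and *Taf1c* (1.04), and *Exosc10* (-0.55) and *Utp3* (-0.55) were lower. Of the snoRNA host RNAs 5 were higher, led by *Epb41l4aos* (1.02), *Snhg8* (0.96) and *Snhg20* (0.84). The *Myc* transcript was higher than in WT (3.36, adjusted p = 1.05e-07), and *Hif1a* was lower (-0.28, adjusted p = 0.0488).

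Macrophage-conditioned media gave no detectable change in the set. Between M1-CM and Ctrl 0 members were higher, where 0.0156% of all 19207 genes were, and 0 lower, where 0% were. M1-CM against M0-CM likewise gave 0 and 0 (0.0156% and 0% of all genes), and M0-CM against Ctrl 0 and 0 (0% and 0%). No member reached an unadjusted p under 0.05 in any of the 3 comparisons, and DESeq2 called 0 members as well. The medians of the members were -0.19, -0.06 and -0.06, against 0.015, -0.007 and -0.003 for all genes. Of the 46 members 37, 33 and 31 had a negative log2FC. The range for M1-CM against Ctrl was -0.49 to 0.63. Leaving out 1 library at a time moved the members' medians over -0.27 to -0.01, -0.18 to 0.04 and -0.16 to 0.05. The lowest of these came without M1-CM replicate 1 (-0.27 and -0.18) and Ctrl replicate 1 (-0.16), and the highest without Ctrl replicate 2 (-0.01 and 0.05) and M1-CM replicate 2 (0.04). In the 3 comparisons edgeR also called 0 of the 96 further genes and 0 of the 13 snoRNA host RNAs, and at an unadjusted p under 0.05 1 further gene was lower with M1-CM than in Ctrl. By contrast *Cxcl5* was at 662 to 719 CPM with M1-CM and 78.1 to 117 CPM in Ctrl (log2FC 2.76, adjusted p = 0.000474).

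These libraries varied more than the others. The median coefficient of variation of the members was 21.5% with M1-CM, 16.5% in Ctrl and 11.5% with M0-CM, against 5.93% to 11.2% in the 4 groups of the second table and 3.42% to 8.04% in the rescue groups. *Npm1* was at 467, 212 and 406 CPM with M1-CM, where replicate 2 stood apart, and at 388, 525 and 426 CPM in Ctrl. The groups overlapped (log2FC -0.30, SE 0.26, adjusted p = 0.965). *Ncl* was at 77.1, 154 and 61.3 CPM with M1-CM and 111, 53.4 and 59.1 CPM in Ctrl, so that replicate 2 was low for *Npm1* and high for *Ncl* (log2FC 0.39, SE 0.37). *Fbl* (-0.03, SE 0.21) and *Polr1b* (-0.24, SE 0.17) also overlapped between these groups. *Polr1a* was at 75.4, 71.5 and 71.7 CPM with M1-CM, below the 79.8, 89.3 and 80.2 CPM of Ctrl without overlap, but was not called (-0.19, SE 0.13, adjusted p = 0.965). Leaving out any 1 library, M1-CM replicate 2 included, gave 0 calls among the members. Outside the set, *Hif1a* at a log2FC of 0.44 (SE 0.17) between M1-CM and Ctrl was not called by edgeR either (adjusted p = 0.965). With this spread, differences well above these SEs could thus go undetected.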

How the data were processed

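Stranded total RNA libraries (TruSeq, paired reads on a NovaSeq) of 31 samples were aligned by the authors to GRCm38 (mm10 in the labels) with HISAT2 and quantified with StringTie, and the authors deposited raw counts per gene in 3 tables, without normalization. The annotation release and the step from StringTie output to counts are not given in the sources used here. All count columns were used. Samples were grouped by their labels.

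Each table was fitted on its own with all its groups in edgeR 4.0.16 (R 4.3.3, limma 3.58.1): filterByExpr by group, TMM scaling, quasi-likelihood test, Benjamini-Hochberg adjustment over all genes tested and a threshold of 0.05. The study used DESeq2. The SE is the absolute log2 fold change divided by the square root of F. CPM were computed from the counts and the TMM-scaled library size. Levels can be compared between groups only within a table, and all differences are relative to the scaling, so a change in total RNA per cell would not show. Precision is limited by the spread of 2 or 3 samples a group and, for members with low counts, also by depth (41542533 to 78498230 counts per library). The tests were checked on simulated data with planted changes. A first criterion, a fixed minimum of planted changes to be recovered, was not met for the conditioned media, whose replicates spread widely. It was replaced by an unbiased slope, a low share of false calls and recovery that grows with the fold. Sequence features came from GENCODE M21 and RefSeq promoters (GRCm38.p6), with minimap2 2.31-r1302 for copies, and figures and tables from Python 3.11.15, pandas 2.3.3 and numpy 2.4.6.

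The rule for named genes took *Ncl*, *Npm1*, *Fbl*, *Polr1a* and *Polr1b* in each comparison as reference members, up to 4 members called in each direction with the largest absolute log2 fold change, up to 4 called against the majority, and up to 3 genes a direction from the further lists. Further members are named for a pattern, such as a lost call, an E-box or a feature of the gene, after their values were seen. The members, roles and lists were chosen with earlier results of these data known. Every result was recomputed with each library left out, with library totals or the size factors of DESeq2 in place of TMM, with the Wald test of DESeq2 1.42.0, without the filter or with a minimum of 10 counts per library, with a fit of the compared groups alone, with a block for the replicate number, with entries of a symbol summed, and with calls limited to an absolute log2 fold change above 0.5.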

Additional observations from a re-analysis of the deposited data

Results flagged for a closer look

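The genotype effect differed between 3D and 2D culture, by the interaction term of edgeR, for 16 members. In 3D 3 had a more positive effect, where 11.1% of all genes had one. A more negative effect was called for 13, where 16.1% of all genes had one. With library totals the split was 7 more positive and 2 more negative. The differences of the effects on the log2 scale were 0.76 for *Ncl*, 0.65 for *Imp4* and 0.53 for *Ubtf*, and -0.95 for *Ppan*, -0.84 for *Imp3*, -0.82 for *Ddx10*, -0.80 for *Noc2l* and -0.64 for *Npm1*. For *Ncl* the 2D *Cxcl5-/-* libraries were at 142 to 160.2 CPM below the 210.1 to 254 CPM of 2D WT and the 3D groups overlapped, and the call was lost in 7 of the 12 fits that left out 1 library each. The call for *Npm1* was lost in 4 of those 12. The 3D libraries labelled *Cxcl5-/-* carry more *Cxcl5* transcript than 3D WT, so the direction is that of the labels.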

How the results depend on the processing

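The counts of members lower in 3D than in 2D and of members higher with *Hif1a*OE or *Myc*OE than in *Cxcl5-/-* stayed within 1.5 times under every alternative run. The others moved as follows, as higher and lower members. With an absolute log2 fold change above 0.5, labelled 3D *Cxcl5-/-* against 3D WT gave 0 and 17, the 2D genotypes 0 lower, rescue *Cxcl5-/-* against WT 0 higher, *Myc*OE against *Hif1a*OE 2 and 0, *Hif1a*OE against WT 5 higher and *Myc*OE against WT 14 and 1. With library totals these were 12 and 8, 1 lower, 1 higher, 5 higher, 4 and 8, and 8 and 6, the interaction gave 7 and 2, and *Hif1a*OE and *Myc*OE against *Cxcl5-/-* each gave 1 lower. *Fbl* turned to 0.00898 and *Polr1b* to 0.34 in the 3D genotype comparison and *Polr1a* to -0.0727 with *Myc*OE against *Cxcl5-/-*. Without a filter the 2D genotypes gave 1 lower and the interaction 6 lower. DESeq2, its size factors and at least 10 counts gave, in this order, 0, 0 and 0 higher in rescue *Cxcl5-/-*, 5 and 6, 4 and 5, and 4 and 7 for *Hif1a*OE against WT, and 5, 5 and 5 lower for *Myc*OE against WT, and DESeq2 and at least 10 counts gave 1 lower for *Hif1a*OE against *Cxcl5-/-*. With only the groups compared, the 2D genotypes gave 7 lower, *Myc*OE against *Hif1a*OE 1 lower and *Hif1a*OE against WT 9 higher. The causes were not tested.

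Medians of the members moved too. With library totals they were -1.28 and -1.22 for 3D against 2D in WT and *Cxcl5-/-*, -0.0047 for the 3D genotypes, 0.52 and 0.56 for *Hif1a*OE and *Myc*OE against *Cxcl5-/-* and 0.05 for *Myc*OE against *Hif1a*OE. With at least 10 counts they were -1.25 for labelled 3D against 2D *Cxcl5-/-*, -0.28 for the 3D genotypes, and 0.07 and 0.17 for *Hif1a*OE and *Myc*OE against WT. Without 3D WT replicate 3 they were -0.51 for the 3D genotypes and -0.37 for the interaction.

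The replicate numbers did not pair the samples: deviations of same-numbered libraries from their group means had mean correlations of 0.0369, 0.0247 and 0.00408 in the 3 tables, with 3 of 9, 1 of 18 and 0 of 13 pairs above 0.1. With the replicate block 1 member was higher in rescue *Cxcl5-/-*, no other count moved by more than 1.5 times, and *Ncl* passed in the 2D genotypes (-0.57) and in labelled 3D against 2D *Cxcl5-/-* (-0.33).

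Leaving out each library gave ranges of 1 to 3 higher and 23 to 31 lower for the 3D genotypes, 0 to 2 lower for the 2D genotypes, 2 to 3 and 8 to 19 for the interaction, 0 higher and 27 to 32 lower for rescue *Cxcl5-/-*, 38 to 41 and 36 to 40 higher for *Hif1a*OE and *Myc*OE against *Cxcl5-/-*, 7 to 16 and 1 to 3 for *Myc*OE against *Hif1a*OE, 5 to 18 and 2 to 5 for *Hif1a*OE against WT, and 15 to 26 and 1 to 3 for *Myc*OE against WT. Where 1 library of a pair is left out, the remaining one is assumed to vary like the other groups. For single members, 56 calls were lost, 19 gained and 3 values changed sign over the alternatives that left out no library. Over the fits that left out 1 library, 83 calls were lost and 2 gained.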
